A study of Mus musculus with 4 samples.

Results

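Genes of the cell cycle and of DNA replication were followed in the small intestine of wild type (WT) and Cftr null (CF) mice with and without lubiprostone. With earlier results of these data known, 39 genes were chosen by name from what their products do in the cycle. The set holds these 39 genes, 18 of the G1/S transition and S phase, and 21 of G2 and mitosis. Of these, 38 had at least 1 probe set listed for that gene alone, and 36 had a probe set with a signal at or above its array's median on at least 1 array, among 12259 genes that passed the same filter. These 36 genes, 16 of S phase and 20 of mitosis, were represented by 71 of the 88 member probe sets, and 25 genes had a probe set at or above the 75th percentile of every array.

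In the intestine, dividing cells lie in the crypts, where stem cells at the base give rise to transit amplifying cells that leave the cycle as they move onto the villi. Entry into S phase is set by cyclin D and cyclin E with their kinases, which release E2F factors from RB proteins, so that genes for origin licensing, the MCM helicase and deoxynucleotide synthesis are switched on. Genes for the mitotic cyclins, kinases and spindle proteins follow later, through the MuvB complex with B-MYB and FOXM1, and their promoters are known for a CCAAT box and a cell cycle genes homology region (CHR, TTTGAA).

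Each of the 4 groups was 1 pool of RNA from the entire small intestine, read on 1 Affymetrix Mouse 430 2.0 array. All mice were on the C57BL/6 background by the labels, C57BL/6J by the study's methods, and took the liquid diet Peptamen from weaning, and the treated mice received lubiprostone, a prostone described as a ClC-2 chloride channel activator, by daily gavage of 100 µl Peptamen at 10 µg/kg for 2 weeks. The WT control pool held RNA of 10 mice by the deposited design text, while the study's methods give a smaller number; the WT + lubiprostone pool held 7, the CF control pool 10 and the CF + lubiprostone pool 8 mice. Controls are labelled as having no treatment and are called untreated here. CF mice carried cftr-tm1Unc, a germline null allele, and ages were not in the labels. With 1 array per group the spread between mice is not known and no test of a difference between groups was possible, so the only error given is the SD between probe sets of one gene, which share the same pools.

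The arrays fit their labels at Cftr, where the brighter probe set gave a signal of 2505 in untreated and 2226 in treated WT mice, and 620 in untreated and 715 in treated CF mice. All arrays had been scaled to one target, and their median signals were 124, 123, 109 and 120 in the same order. Ratios of 3′ to 5′ control probe sets, a sign of RNA quality, lay between 0.746 and 0.809 for Gapdh and between 1.23 and 1.34 for beta actin. Xist, expressed in females, read 1036, 3683, 2510 and 4062, and the Y-linked Eif2s3y 1242, 829, 884 and 805, so the pools differed in these sex-linked signals, whose part in the results was not tested. Epithelial markers were present on every array, with a summed signal of 131148 in untreated and 139969 in treated WT mice, and 154041 in untreated and 153167 in treated CF mice.

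Promoter sequences were at hand for 31 of the 39 genes, and motif counts, which no expression value enters, differed between the S phase and the mitosis genes. In windows of 300 bases around the start site, read on both strands, TTTGAA was found in 12 of 16 mitosis promoters (75%), in 1 of 15 S phase promoters (6.67%) and in 20.2% of all 27025 genes. CCAAT was found in 14 of the 16 (87.5%), in 9 of the 15 (60.0%) and in 41.1% of all genes, and CCAAT together with TTTGAA in 12 of the 16, in 1 of the 15 and in 7.97% of all genes. An E2F motif, taken as GCGGGAA or GCGCCAA, was found in 8 of 15 S phase promoters (53.3%), in 3 of 16 mitosis promoters (18.8%) and in 7.79% of all genes. GCGCCAA and CCAAT can share letters, which happened in the promoters of Ccnb1 and Mcm7. A match of letters is a description and not evidence of binding.

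The 4 mitosis promoters below are shown because they hold CCAAT and TTTGAA close to the start site, and their genes code for the mitotic kinase, 2 partners of the anaphase-promoting complex and a spindle motor. Each line gives the 120 bases just before the start site, 5′ to 3′ on the strand of the gene, with CCAAT (or ATTGG) and TTTGAA (or TTCAAA) in capitals; coordinates and sequence are from RefSeq, build GRCm38.p6. They lie at chr10:69352913-69353032 (minus strand) for Cdk1, chr4:118437344-118437463 (minus strand) for Cdc20, chr2:164769809-164769928 (plus strand) for Ube2c and chr19:37376262-37376381 (plus strand) for Kif11.
Cdk1: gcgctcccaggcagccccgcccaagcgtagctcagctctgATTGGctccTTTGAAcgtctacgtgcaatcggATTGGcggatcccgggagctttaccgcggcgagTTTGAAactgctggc
Cdc20: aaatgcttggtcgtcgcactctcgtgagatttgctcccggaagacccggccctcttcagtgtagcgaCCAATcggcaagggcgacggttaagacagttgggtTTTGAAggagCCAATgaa
Ube2c: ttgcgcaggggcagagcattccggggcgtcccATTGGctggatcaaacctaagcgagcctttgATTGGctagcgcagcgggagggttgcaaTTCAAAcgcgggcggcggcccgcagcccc
Kif11: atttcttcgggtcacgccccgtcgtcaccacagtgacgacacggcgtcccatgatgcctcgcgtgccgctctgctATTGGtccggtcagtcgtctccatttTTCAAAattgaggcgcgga
In Cdc20 a CCAAT box started 53 bases before the start site and the TTTGAA 18 bases before it, in Kif11 these distances were 45 and 19 bases, and in Cdk1 the TTTGAA nearest to the start lay 15 bases before it.

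The 3 S phase promoters that follow belong to a subunit of the MCM helicase and to the large (Rrm1) and small (Rrm2) subunits of ribonucleotide reductase, the pair whose signals went opposite ways between treated and untreated CF mice. Capitals mark CCAAT as above and the E2F motif (GCGCCAA, or TTGGCGC on the other strand, and GCGGGAA, or TTCCCGC). They lie at chr1:128359706-128359825 (minus strand) for Mcm6, chr7:102441575-102441694 (plus strand) for Rrm1 and chr12:24708134-24708253 (plus strand) for Rrm2.
Mcm6: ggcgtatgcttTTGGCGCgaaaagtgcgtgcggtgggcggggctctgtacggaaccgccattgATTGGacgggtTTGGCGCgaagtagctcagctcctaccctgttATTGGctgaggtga
Rrm1: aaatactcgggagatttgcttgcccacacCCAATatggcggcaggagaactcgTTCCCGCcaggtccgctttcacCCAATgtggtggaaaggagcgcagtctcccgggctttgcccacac
Rrm2: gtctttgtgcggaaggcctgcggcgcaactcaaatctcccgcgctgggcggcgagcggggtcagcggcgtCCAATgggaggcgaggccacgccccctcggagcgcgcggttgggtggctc
Mcm6 had an E2F motif 109 and 46 bases before the start site, and Rrm1 had one 67 bases before it, while no E2F motif of these letters stood in the Rrm2 window. None of these 3 windows held TTTGAA.

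In WT control, the brightest S phase gene was Pcna, which codes for the sliding clamp of DNA polymerases, with a signal of 7448. Cdt1 and Mcm7, a licensing factor and a helicase subunit, had their brightest probe sets at 2111 and 2222. Among mitosis genes the brightest was Cdc20, an activator of the anaphase-promoting complex, at 2302, with Top2a (DNA topoisomerase II alpha) at 2089 and Mki67, which codes for the proliferation antigen Ki-67, at 2004. At the dim end, Cdc6 had 199 and the brightest probe set of Ccne1 173 against an array median of 124. Signals of different probe sets are not levels per length, so the order of genes by signal is not an order of abundance. Foxm1 (241 in WT control) and Kif23 also rested in part on probe sets close to the array median.

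**Figure D1:**
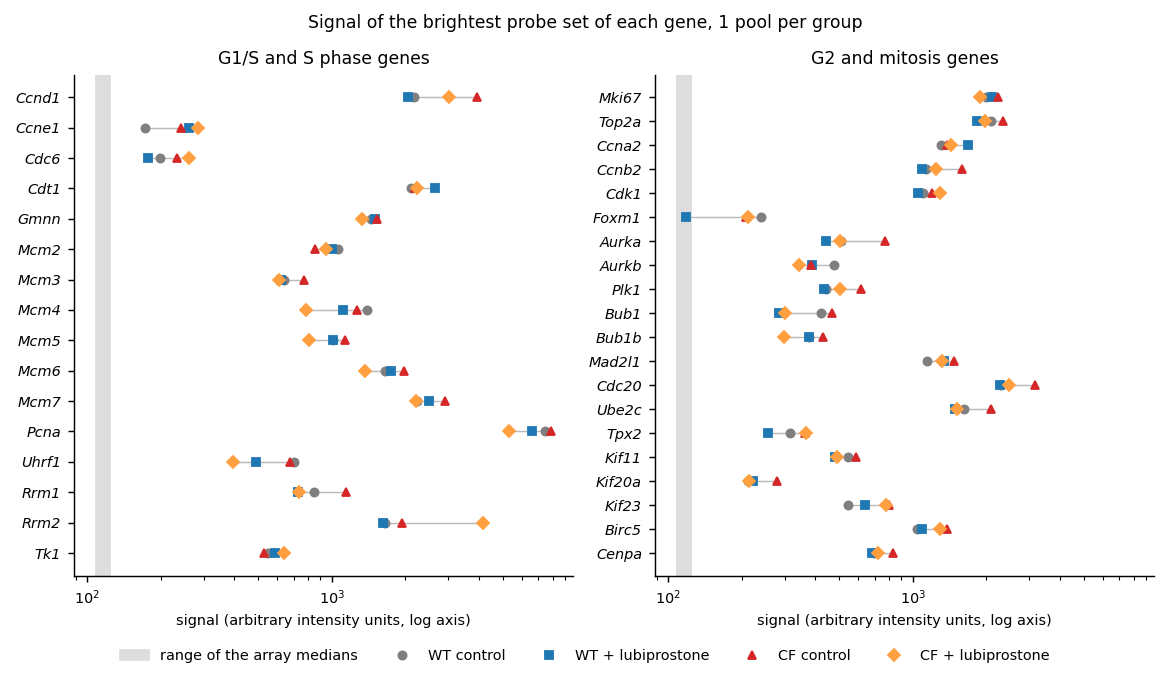
Signal of the brightest probe set of each of the 36 genes (rows) on the 4 arrays (log axis, arbitrary intensity units), S phase genes on the left and mitosis genes on the right; each point is 1 pool and the grey band spans the array medians, 109 to 124. Most genes lie well above the band. The CF control triangle is often the rightmost point, but not for Cdt1, Mcm2, Mcm4, Uhrf1, Tk1, Cdk1, Aurkb and further genes. Rrm2 is highest in CF + lubiprostone (4169).

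In CF control compared with WT control, mitosis genes had higher signals and S phase genes followed with smaller differences. Of the 20 mitosis genes, 15 were higher and 5 lower, with a median log2 ratio of 0.30; of the 16 S phase genes, 12 were higher and 4 lower, with a median of 0.13. Over all 12259 genes 47.7% were higher and 52.3% lower, and the median was -0.022. With the same median set for all arrays instead, the median of all genes was 0.16. Then 15 of 16 S phase and 18 of 20 mitosis genes were higher. That scaling shifts every log2 ratio equally, so the medians relative to all genes, 0.15 and 0.32, could not change. Quantile normalization gave 10 of 16 S phase genes higher, and medians relative to all genes of 0.098 and 0.26. With a filter at the 75th percentile these were 0.046 for S phase and 0.33 for mitosis genes. In the same comparison smooth muscle markers had a median of 0.58, reference genes one of 0.28 and epithelial markers one of 0.26, and their part in these values was not tested. Because these are whole-organ pools, more dividing cells and more RNA per dividing cell cannot be told apart.

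A size of 1.5-fold was reached upward by 1 S phase and 2 mitosis genes and downward by none. The background for this size was 8.05% of all genes higher and 12.2% lower, so 3 of 36 is close to the share of all genes. The first was Ccnd1, cyclin D1, the cyclin that couples growth signals to G1 progression. Its brightest probe set read 2174 in untreated and 2043 in treated WT mice, and 3916 in untreated and 3025 in treated CF mice. Both CF pools were thus above both WT pools, and the log2 ratio of CF control over WT control was 0.71 ± 0.12 (SD, 3 probe sets).

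Aurka codes for Aurora kinase A, which acts at centrosomes and spindle poles. Its 1 kept probe set read 509 in untreated and 444 in treated WT mice, and 774 in untreated and 506 in treated CF mice, a log2 ratio of 0.60 in CF control. The CF control pool alone stood above the other 3. Cdc20 had a log2 ratio of 0.80 ± 0.55 (SD, 3 probe sets), but the size rested on a dim probe set (72.7 in WT control, 195 in CF control, log2 ratio 1.42). Its bright probe sets read 1066 and 2302 in untreated and 1010 and 2269 in treated WT mice, and 1513 and 3157 in untreated and 1442 and 2485 in treated CF mice. These were higher in CF control by 0.51 and 0.46 on the log2 scale, below the 1.5-fold mark.

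Below that size, several mitosis genes were higher in CF control by like amounts. Ccnb2, a mitotic cyclin, read 1130 in untreated and 1093 in treated WT mice, and 1594 in untreated and 1245 in treated CF mice. Plk1, Polo-like kinase 1, read 443, 436, 616 and 505 in that order. Birc5 (survivin, of the chromosomal passenger complex) read 1042, 1096, 1386 and 1292. In all 3 the CF control pool was the highest, with log2 ratios over WT control of 0.50, 0.47 and 0.41. Ube2c, the ubiquitin-conjugating enzyme of the anaphase-promoting complex, and Mad2l1, of the spindle checkpoint, both had a log2 ratio of 0.37, and Kif20a, a kinesin of cytokinesis, one of 0.39. Kif23 was lower by its mean, at -0.38 ± 0.84 (SD, 3 probe sets), but its brightest probe set was higher, with 543 in WT control and 799 in CF control.

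Among S phase genes, the subunits of ribonucleotide reductase, the enzyme that makes deoxynucleotides, had the larger differences after Ccnd1, with log2 ratios of 0.56 ± 0.17 for Rrm1 (2 probe sets) and 0.40 ± 0.37 for Rrm2 (3 probe sets). Of the MCM helicase, Mcm7 was higher by 0.30 ± 0.07 (4 probe sets) and Mcm5 by 0.18 ± 0.01 (2 probe sets), whereas Mcm2 was lower at -0.32 ± 0.01 (2 probe sets). Pcna (0.077), Gmnn (0.084; geminin, the inhibitor of CDT1), Cdt1 (-0.037) and Tk1 (-0.046; thymidine kinase) differed by less than 0.24, the median SD between probe sets of one gene over all genes in this comparison. Mki67 also stayed below it, at 0.16.

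Further S phase genes had small or mixed differences. The 5 kept probe sets of Mcm3 ranged from -0.69 to 0.69 on the log2 scale in untreated CF over untreated WT mice, with a mean of 0.17 ± 0.51 (SD). Ccne1, cyclin E1, read 173 in untreated and 261 in treated WT mice, and 242 in untreated and 283 in treated CF mice by its brighter probe set, and 145, 91.1, 158 and 94.7 by the dimmer one. The 2 probe sets differed in direction for lubiprostone, so no direction is given for it. Cdc6, which loads the helicase, read 199, 178, 234 and 262, and both CF pools were above both WT pools although this gene was dim. Gmnn read 1447, 1504, 1534 and 1335, and the brighter probe set of Cdt1 read 2111, 2639, 2199 and 2242, with no pool far from the rest.

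**Figure D2:**
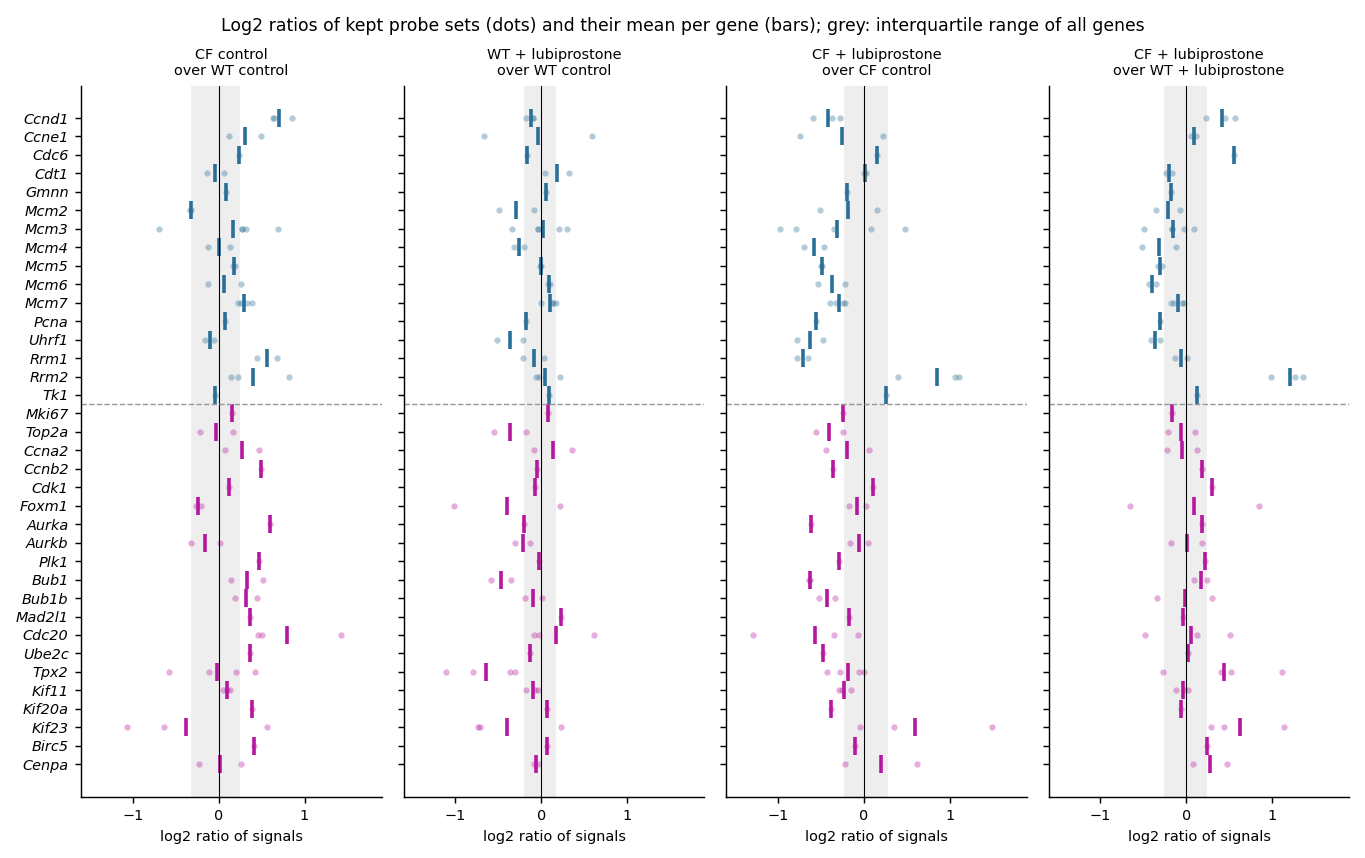
Log2 ratios of signals in 4 comparisons (panels) for the 36 genes (rows; S phase above the dashed line, mitosis below); dots are kept probe sets, bars their mean per gene, and the grey band is the interquartile range of all 12259 genes. In CF control over WT control most bars lie right of 0, in CF + lubiprostone over CF control most lie left of it, and Rrm2 and Kif23 stand apart on the right.

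In WT mice, lubiprostone went with small differences. S phase genes split into 7 higher and 9 lower in WT + lubiprostone than in WT control, with a median log2 ratio of -0.021, and mitosis genes into 6 higher and 14 lower, with a median of -0.082. Of all genes 49.4% were higher and 50.6% lower, with a median of -0.0041. The 3 kept pancreas markers had a median of -2.92 here, and their part was not tested. Only Tpx2, which codes for a spindle assembly factor that activates Aurora A, was lower by at least 1.5-fold, a size that 5.67% of all genes reached, and no gene of the set was higher by it (5% of all genes).

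The 4 probe sets of Tpx2 read 316, 139, 121 and 145 in WT control and 256, 64.4, 69.8 and 113 in WT + lubiprostone. All 4 were lower, with a mean log2 ratio of -0.64 ± 0.38 (SD), yet the brightest was lower by only 0.30 and the others lay near or below the array median. Bub1, a kinetochore kinase, was lower at -0.47 ± 0.16 (2 probe sets), and its brighter probe set read 424 in WT control and 284 in WT + lubiprostone. Top2a (-0.37 ± 0.26, 2 probe sets) and Uhrf1, which couples DNA methylation to replication (-0.36 ± 0.21, 2 probe sets), were lower too, while Mki67 (0.082), Cdk1 (-0.073), Plk1 (-0.024) and Mcm5 (-0.0043) stood close to 0.

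In CF mice, signals of both gene groups were lower with lubiprostone. Of the S phase genes 12 of 16 were lower and 4 higher in treated than in untreated CF mice, with a median log2 ratio of -0.30. Of the mitosis genes 17 of 20 were lower and 3 higher, with a median of -0.24. Over all genes 48.2% were lower and 51.8% higher, with a median of 0.016. Of the 71 kept probe sets 52 were lower, and of the 37 that lay at or above the 75th percentile on every array 28 were. Smooth muscle and crypt stem cell markers were lower too, with medians of -0.51 and -0.30, while epithelial markers were at 0.023, and their part was not tested. With the arrays scaled to the same median, the median of all genes was -0.11. Relative to all genes the medians of the S phase and mitosis genes were -0.32 and -0.25, which that scaling cannot change. Quantile normalization gave -0.33 and -0.26 for these, and a filter at the 75th percentile -0.32 and -0.23.

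The MCM helicase subunits were lower by the means of their probe sets. All 6 of Mcm2 to Mcm7 had a lower mean in treated than in untreated CF mice, with a median of -0.34. Of their 17 kept probe sets 14 were lower. The brighter probe set of Mcm5 read 1010 in untreated and 1011 in treated WT mice, and 1138 in untreated and 808 in treated CF mice. That of Mcm4 read 1390, 1117, 1273 and 784 in that order, and that of Mcm6 1657, 1755, 1979 and 1373. In each the CF + lubiprostone pool was the lowest of the 4. The log2 ratios of CF + lubiprostone over CF control were -0.49 ± 0.01 for Mcm5, -0.58 ± 0.17 for Mcm4, -0.37 ± 0.22 for Mcm6 (SD, 2 probe sets each) and -0.29 ± 0.08 for Mcm7 (4 probe sets). For Mcm3 (-0.31 ± 0.60, 5 probe sets) and Mcm2 (-0.18 ± 0.47, 2 probe sets) the spread between probe sets exceeded the difference. The brighter probe set of Mcm2 was higher, with 853 in CF control and 948 in CF + lubiprostone, and so were 2 of the 5 of Mcm3.

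Pcna read 7448 in untreated and 6582 in treated WT mice, and 7857 in untreated and 5327 in treated CF mice, a log2 ratio of -0.56 in the treated CF pool. It too was lowest there. Uhrf1 passed 1.5-fold with -0.62 ± 0.21 (2 probe sets), and its brighter probe set read 699, 490, 675 and 395 in the same order of groups. Both lubiprostone pools were thus below both control pools.

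The 2 subunits of ribonucleotide reductase went opposite ways. Rrm1, the large subunit, read 843 and 751 by its 2 kept probe sets in WT control, 729 and 771 in WT + lubiprostone, 1147 and 1204 in CF control, and 733 and 704 in CF + lubiprostone. Only the CF control pool stood high, and CF + lubiprostone was back within the range of the WT pools or just under it, with a log2 ratio over CF control of -0.71 ± 0.09.

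Rrm2, the small subunit, read 1654 in untreated and 1621 in treated WT mice, and 1933 in untreated and 4169 in treated CF mice by its brightest probe set. A further probe set read 786, 753, 868 and 1815, and the last 617, 721, 1088 and 1432. All 3 were highest in CF + lubiprostone, with ratios over CF control of 2.16, 2.09 and 1.32 and a log2 ratio of 0.86 ± 0.40 (SD). It was the only S phase gene at least 1.5-fold higher in this comparison, a size reached upward by 9.99% of all genes and downward by 6.77%. Uhrf1 and Rrm1 were the 2 S phase genes lower by that much. Tk1, of the salvage route to thymidine nucleotides, was at 531 in CF control and 637 in CF + lubiprostone (log2 ratio 0.26).

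**Figure D3:**
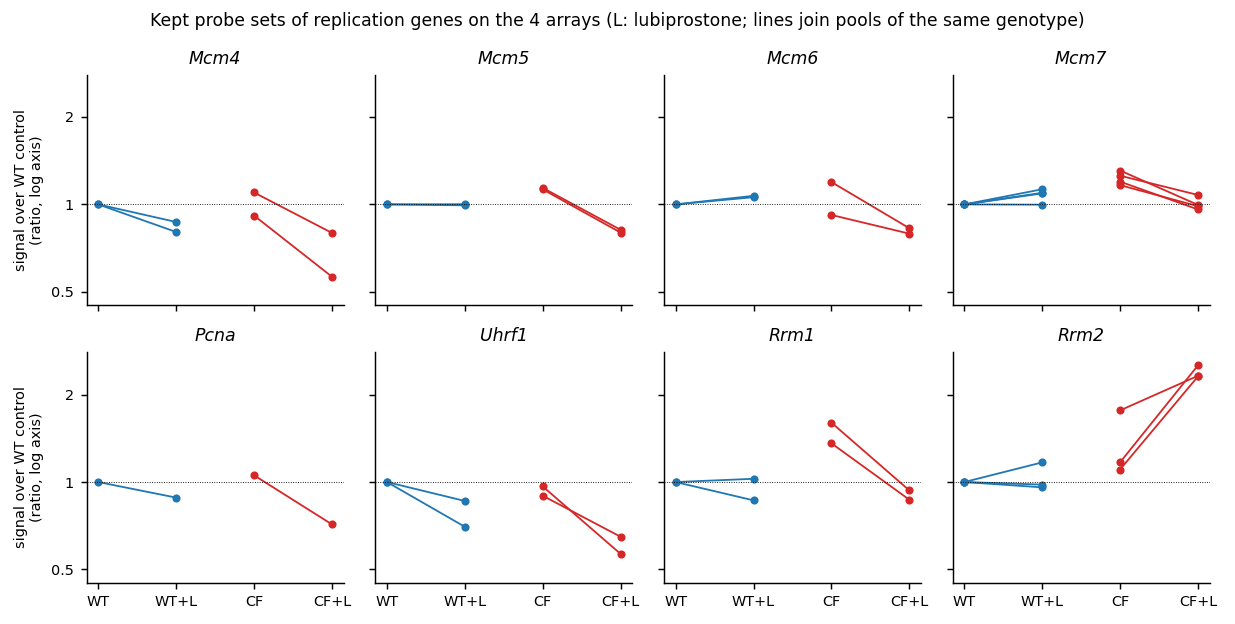
Signal of each kept probe set over its own signal in WT control (ratio, log axis) for 8 replication genes; points are pools, lines join control and lubiprostone (L) pools of one genotype, blue for WT and red for CF. Lines of Mcm4 to Mcm7, Pcna, Uhrf1 and Rrm1 slope down from CF to CF + L, and the 3 lines of Rrm2 slope up.

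Among mitosis genes, Aurka and Bub1 were lower by at least 1.5-fold in treated than in untreated CF mice, with log2 ratios of -0.61 (1 probe set) and -0.63 ± 0.01 (2 probe sets). Over the set, 4 of 36 genes were lower and 2 higher by this size, beside 6.77% lower and 9.99% higher of all genes. The brighter probe set of Bub1 read 424 in untreated and 284 in treated WT mice, and 468 in untreated and 302 in treated CF mice, so that both lubiprostone pools were below both controls. Its dimmer probe set read 103, 80.7, 148 and 95.8, near or below the array medians, so the small SD rests in part on a dim signal. Bub1b, which codes for the checkpoint protein BubR1, was lower at -0.43 ± 0.14 (2 probe sets). Ube2c read 1626, 1488, 2097 and 1515 in that order of groups, and Kif20a 213, 224, 279 and 214. For both the CF control pool alone was high, with log2 ratios of -0.47 and -0.38 in the treated CF pool. By its bright probe sets Cdc20 had log2 ratios of -0.070 and -0.35.

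Not all mitosis genes were lower. Cdk1, the mitotic kinase, read 1104 in untreated and 1049 in treated WT mice, and 1202 in untreated and 1295 in treated CF mice, with a log2 ratio of 0.11 over CF control. Kif23, a kinesin of the midbody, passed 1.5-fold upward by its mean of 0.60 ± 0.80 (3 probe sets), but its brightest probe set read 799 in untreated and 776 in treated CF mice, a log2 ratio of -0.042. Cenpa, the centromeric histone H3 variant, had probe sets of opposite sign, and its brighter one read 835 and 720. Mki67 read 2004 in untreated and 2121 in treated WT mice, and 2234 in untreated and 1887 in treated CF mice, so that its 4 values were close, with a log2 ratio of -0.24 in the treated CF pool. Kif11, the kinesin that pushes spindle poles apart, was lower by a like amount on all 3 probe sets, at -0.23 ± 0.07.

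Further mitosis genes showed no steady order of the pools. One probe set of Ccna2, cyclin A2, read 1310 in untreated and 1676 in treated WT mice, and 1376 in untreated and 1434 in treated CF mice, while the other read 1165, 1099, 1617 and 1195. Top2a, which untangles sister DNA, read 2089, 1841, 2339 and 1974 by its brighter probe set and 489, 334, 422 and 288 by the other. Lubiprostone pools were lower than their controls on both Top2a probe sets. Aurkb, Aurora kinase B of the passenger complex, read 479, 389, 383 and 344 by its brighter probe set, highest in untreated WT mice, and 282, 259, 285 and 295 by the other, highest in treated CF mice. Foxm1, the transcription factor of the G2 programme, had probe sets at 241, 119, 209 and 213 and at 133, 155, 111 and 98.3, which share no order. Mad2l1 read 1146, 1348, 1478 and 1317, lowest in untreated WT mice.

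Between the lubiprostone pools, CF + lubiprostone over WT + lubiprostone, differences of both groups were small. Of the S phase genes 11 of 16 were lower in the CF pool, with a median log2 ratio of -0.16. Of the mitosis genes 13 of 20 were higher, with a median of 0.075, or 12 of 20 with a median of 0.041 without the filter. Of all genes 50% were higher and 50% lower. Both medians were smaller in size than 0.23, the median SD between probe sets of one gene over all genes in this comparison. The same held for the S phase median of 0.13 in CF control over WT control (SD 0.24). It also held for the mitosis median of -0.24 in treated over untreated CF mice (SD 0.26). This SD is a spread within single genes and not an error of a median over many genes. In the same comparison 6 of 8 crypt stem cell markers (median -0.37), 7 of 7 enterocyte markers (median -0.41) and 5 of 5 macrophage markers (median -0.25) were lower and 3 of 3 pancreas markers higher (median 1.35), and their part in these values was not tested. All 6 MCM genes were lower, with a median of -0.26, and 16 of their 17 probe sets were. Rrm2 was higher at 1.21 ± 0.19 (3 probe sets), and Kif23 had 0.62 ± 0.45 (3 probe sets). The brightest probe set of Kif23 had only 0.29. Its largest value, 1.14, came from a dim probe set (58.8 in WT + lubiprostone, 130 in CF + lubiprostone). That probe set passed the filter only through CF + lubiprostone, so the size is partly set by the filter. Kif23 stayed past 1.5-fold in 4 of 8 alternatives. No other gene of the set passed 1.5-fold, a size that 8.56% of all genes reached upward and 9.29% downward. No gene of the set reached 3-fold, the study's own threshold, in any of the 4 comparisons. Over all genes this size was reached upward by 1.25% and downward by 2.01% in CF control over WT control, by 0.693% and 0.726% in WT + lubiprostone over WT control, by 1.16% and 0.840% for treated over untreated CF mice, and by 1.36% and 1.35% in CF + lubiprostone over WT + lubiprostone.

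The difference between CF and WT controls shares no array with that between the treated pools. Of the 36 genes, 14 were higher in CF among controls and lower in CF among treated pools (38.9%, against 17.5% of all genes), 13 were higher in both (36.1%, against 30.2%), 5 were lower and then higher (13.9%, against 19.8%), and 4 were lower in both (11.1%, against 32.5%). Of the 14, 8 were S phase and 6 mitosis genes. Likewise the difference between treated and untreated WT mice shares no array with that in CF mice. There 19 genes were lower with lubiprostone in both genotypes (52.8%, against 27.9% of all genes), 10 were higher in WT and lower in CF (27.8%, against 20.3%), 4 the reverse (11.1%, against 22.8%), and 3 were higher in both (8.33%, against 29.1%). The differences in WT were small, with a median over the set of -0.067 against -0.27 in CF.

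Other genes of the same processes, listed apart from the 39, were mostly lower in treated than in untreated CF mice, where 48.2% of all genes were. Like the members, these lists were chosen with earlier results of these data known, so they are no independent check. Of 22 genes of polymerases, clamp loading and ligation 19 were lower, with a median of -0.28. Rfc1, of the clamp loader, read 502 in CF control and 379 in CF + lubiprostone by its brightest probe set, and Rpa3, of the single-strand binding protein RPA, 1311 and 948. Of 18 genes of origin recognition, loading and firing 14 were lower, with a median of -0.19, and Gins4, of the GINS complex, read 752 and 476. Of 19 kinetochore and checkpoint genes 13 were lower (median -0.29), of 27 spindle motor and cytokinesis genes 19 (median -0.15), of 14 genes of DNA repair in S phase 10 (median -0.23) and of 8 genes of nucleotide supply 6 (median -0.21). Closer to an even split were condensin and cohesin with 8 of 12 lower (median -0.11), cyclins, CDKs and CDC25 with 9 of 16 (median -0.12) and RB, E2F and DREAM genes with 9 of 17 (median -0.13), while p53 targets had 3 of 8 lower (median 0.11) and growth signals to crypts 5 of 11 (median 0.079). Cks1b and Cks2, small binding partners of cyclin-dependent kinases, read 3908 and 2806 in CF control and 3374 and 2132 in CF + lubiprostone. Some genes of these lists went the other way. From CF control to CF + lubiprostone, the brightest probe sets read 512 and 566 for Orc3, 2109 and 2466 for Cdc25a, and 540 and 559 for Ccnd3. Their gene means had log2 ratios of 0.53, 0.28 and 0.63, the last past 1.5-fold.

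For CF control over WT control these lists were less even. The polymerase list had 15 of 22 genes higher (median 0.12) and the spindle list 19 of 27 (median 0.15), whereas origin genes were 9 higher and 9 lower (median -0.015) and kinetochore genes 9 higher and 10 lower (median -0.023). In WT + lubiprostone over WT control their medians lay at -0.0085, 0.0029, -0.13 and -0.045 in the same order.

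Inhibitors of cyclin-dependent kinases had no common direction, with 3 of 7 higher and 4 lower in treated than in untreated CF mice. Cdkn1a, which codes for p21, read 3936 in untreated and 3728 in treated WT mice, and 2894 in untreated and 4635 in treated CF mice by its brightest probe set. On that probe set the CF control pool was the lowest and the treated CF pool the highest. The mean of its 2 kept probe sets was less clear for the controls, with a log2 ratio of -0.11 in CF control over WT control. It was 0.21 in WT + lubiprostone over WT control and 0.58 in treated over untreated CF mice. Cdkn1c, which codes for p57, read 158, 131, 18.3 and 129, and in CF control it lay below the array median, so that only a bound holds there. Of 10 genes tied to quiescence or growth arrest 9 were lower in untreated CF than in untreated WT mice (median -0.30) and 8 were higher in treated than in untreated CF mice (median 0.25), with Ndrg1, a stress-responsive gene, at 2995 in untreated and 3288 in treated WT mice, and 1170 in untreated and 3153 in treated CF mice.

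**Figure D4:**
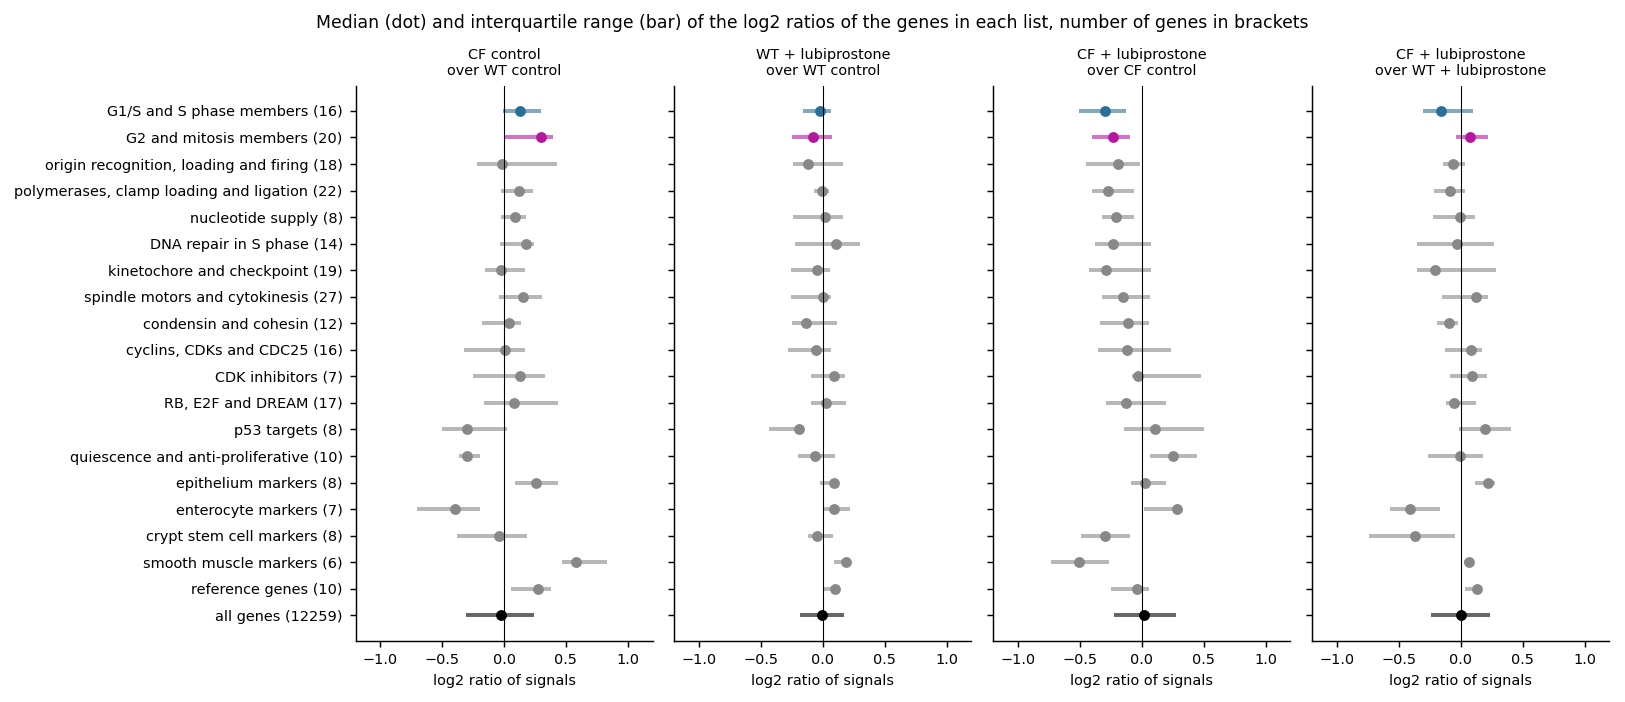
Median (dot) and interquartile range (bar) of log2 ratios of signals in 4 comparisons (panels) for the S phase and mitosis genes, other cell cycle lists, marker lists and all genes (rows, number of genes in brackets). Medians of the replication and mitosis lists lie left of 0 in CF + lubiprostone over CF control and that of the p53 targets right of it (0.11). Several bars cross 0, among them those of the kinetochore and spindle lists and of the p53 targets. Medians of smooth muscle and crypt stem cell markers lie to the left as well (-0.51 and -0.30), and that of the quiescence list to the right (0.25).

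Markers of other cells differed between the same pools. All 6 smooth muscle markers were higher in untreated CF than in untreated WT mice (median 0.58) and lower in treated than in untreated CF mice (median -0.51), with summed signals of 25085 in untreated and 28173 in treated WT mice, and 36848 in untreated and 25748 in treated CF mice. All 6 mast cell markers were measured, and their sum was 1262, 953, 10615 and 1345, highest in untreated CF mice. Summed signals of 3 pancreas markers were 12301, 1403, 13566 and 3443, so that both lubiprostone pools held less of them. Of 8 crypt stem cell markers 6 were lower in the treated CF pool (median -0.30), and Olfm4, a stem cell marker, read 16051 and 8712. Of 7 enterocyte markers all were lower in untreated CF than in untreated WT mice (median -0.39) and 6 were higher in treated than in untreated CF mice (median 0.28), with sums of 201479, 216336, 140848 and 160906.

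Lymphoid markers were dim. All 5 kept T cell markers (median -0.90) and all 4 kept B cell and germinal centre markers (median -0.82) were lower in untreated CF than in untreated WT mice, and of 6 measured erythroid markers 5 lay below the median of every array. By their brightest probe sets, only 4 of 7 measured T cell and 2 of 6 measured B cell markers lay above the median of every array. For a marker kept through some arrays only, the filter itself can favour a difference. Reference genes differed as well, with 8 of 10 higher in untreated CF than in untreated WT mice (median 0.28). The part of these cell types and of the reference shift in the cell cycle values was not tested. Of 5 Paneth cell markers 4 and of 5 macrophage markers 3 were lower in the treated CF pool, with medians of -0.29 and -0.38.

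Of the 3 genes without a value, E2f1 (E2F transcription factor 1) had 3 probe sets and Tyms (thymidylate synthase) 4, all below the median of every array. A probe set listed for Tyms together with Tyms-ps read 506 in untreated and 530 in treated WT mice, and 616 in untreated and 528 in treated CF mice, and was left out because it names more than 1 gene. Expression of Ccnb1 (cyclin B1) was not analysed here, and its promoter entered the motif counts only.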

How the data were processed

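RNA of the mice of each group was pooled by the authors in equal amounts and hybridised to 1 Affymetrix Mouse 430 2.0 array per group (4 arrays). The deposited values are linear signal intensities per probe set from GCOS (MAS5), scaled by the authors; their trimmed mean, leaving out 2% at each end, was 500 on every array. A further build or software version is not given in the sources used here. Of 45101 probe sets, 34958 had 1 gene symbol in the platform annotation, 932 had several and 9211 none; only those with 1 symbol were used, and 34754 of their gene identifiers matched the RefSeq table. A probe set was kept if its signal reached its array's median on at least 1 array (21756 probe sets). A gene's log2 ratio is the mean over its kept probe sets. Sizes of 1.5-fold and 3-fold were counted without a test, since each group has 1 array, whose number limits the precision. The calculation, in Python 3.11 with pandas 2.3.3 and numpy 2.4.6, was tested on simulated data. The members and all lists were chosen with earlier results of these data known. Genes named outside the set were drawn from the 3 brightest of each list and, among bright genes, the highest and lowest ratio per comparison. All inhibitors of cyclin-dependent kinases were eligible too. Not every eligible gene is named. Promoters are 250 bases before to 50 after each RefSeq start site; a gene counts once if any of its windows holds a motif. Alternatives covered scaling, the filter, the choice and averaging of probe sets, a floor, and the members counted.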

Additional observations from a re-analysis of the deposited data

How the results depend on the processing

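Across 9 alternatives, median log2 ratios of S phase and mitosis genes stayed within the spread between probe sets in 72 of 72 values. That spread (median SD of 0.20 to 0.26) is larger than most of these medians, so a change of sign could pass it. The S phase median in WT + lubiprostone over WT control ran from -0.072 to 0.020. In CF control over WT control it ran from 0.080 to 0.31. Counts of higher genes stayed within 1.5 times in 71 of 72 values. The exception was mitosis genes higher in CF + lubiprostone over CF control, 1 in place of 3 with a filter at the 75th percentile. Counts of genes past 1.5-fold, with higher and lower genes added together, moved in 27 of 72 values. With no filter, those in CF control over WT control held 2 higher and 1 lower S phase genes, and 2 higher and 2 lower mitosis genes. Those in WT + lubiprostone over WT control held 1 higher and 1 lower S phase gene, and 2 mitosis genes, both lower. In CF control over WT control, the S phase count of 1 became 2 with arrays scaled to the same median, 3 with no filter and 0 without Ccnd1, and the mitosis count of 2 became 5 with the same median, 4 with no filter, and 1 with the 75th percentile filter, the brightest probe set, without probe sets of the _s_at, _x_at and _a_at kinds, with signals below the median set to it, or with signals averaged on the linear scale. In WT + lubiprostone over WT control, the S phase count of 0 became 2 with no filter and 1 with the brightest probe set or without the _s_at, _x_at and _a_at kinds, and the mitosis count of 1 became 2 with no filter or without those kinds and 0 with the 75th percentile filter, the floor or linear averaging. In CF + lubiprostone over CF control, the S phase count of 3 became 6 with the same median and 5 with no filter, and the mitosis count of 3 became 1 with the floor. In CF + lubiprostone over WT + lubiprostone, the S phase count of 1 became 2 with the same median or no filter, and the mitosis count of 1 became 3 without the _s_at, _x_at and _a_at kinds and 0 with the 75th percentile filter, the floor or linear averaging. Kif23 in CF + lubiprostone over CF control reversed to -0.042 with the 75th percentile filter and with the brightest probe set, since only the bright probe set is then used. Of 1104 values of single genes, 1034 stayed, 68 moved beyond the spread between probe sets and 2 reversed. In CF + lubiprostone over CF control, Rrm2, Rrm1, Uhrf1 and Aurka stayed past 1.5-fold in 8 of 8 alternatives. So did Rrm2 in CF + lubiprostone over WT + lubiprostone, and Ccnd1 and Aurka in CF control over WT control. Aurka has 1 kept probe set, well above the array medians. Only scaling to the same median, quantile normalization and no filter could therefore change its values. Signals near the array median limit Ccne1, Foxm1, Tpx2, Kif23, Cenpa and Bub1, and Bub1 in CF + lubiprostone over CF control stayed past 1.5-fold in 7 of 8 alternatives, and had -0.47 with the floor. No paired analysis was possible because each group has 1 array.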
